A study of Mus musculus with 6 samples.

Results

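Expression of 10 genes of the oxidative stress and metal response, Hmox1, Nqo1, Gclc, Gclm, Txnrd1, Srxn1, Slc7a11, Mt1, Mt2 and Sod3, was compared in muscle satellite cells with and without a histone demethylase. The 10 genes were named in a fixed list, out of 54123 genes with a transcript in the deposited quantification, and that list was chosen from earlier results of these same comparisons. Their fold changes and calls are therefore a description, given without p-values, and tests are given only for other genes of the same pathways. RNA of all 6 libraries came from cells sorted by fluorescence from the tibialis anterior and gastrocnemius of adult C57BL/6 mice, 30 h after an injection of cardiotoxin, a snake venom toxin that kills muscle fibres and sets off regeneration. In the Jmjd3 KO group (2 libraries) the deleted gene is Kdm6b, and in the Utx KO group (2 libraries) it is Kdm6a. Both genes encode enzymes that take methyl groups off lysine 27 of histone H3. The Tdt control group (2 libraries) is the reference, which the series title calls wild type. All 3 groups share the strain, the injury and the sort. Which Cre driver made the deletions, whether the controls carried it, and whether replicates came from separate or pooled animals are not given in the sources used here, so the spread between replicates may be technical.

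NRF2 (gene Nfe2l2) is a transcription factor that KEAP1 holds in the cytoplasm and marks for destruction. Oxidants and electrophiles modify KEAP1, NRF2 then reaches the nucleus, pairs with a small MAF protein and binds antioxidant response elements. BACH1, a haem-binding repressor, occupies many of the same elements and leaves them when haem is abundant. Metallothioneins, small cysteine-rich proteins that bind zinc and copper, are switched on mainly by the zinc-sensing factor MTF1 at metal response elements. In injured muscle these genes are also active in the inflammatory cells that clear debris, above all Hmox1 in macrophages that take up haem.

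Promoter windows from RefSeq (GRCm38.p6, 250 bases before to 50 bases after the start site) were found for 7 of the 10 genes, in 9 windows because Txnrd1 has several starts. None was found for Hmox1, Gclc and Sod3. Windows are shown for the metallothionein pair, which lie next to each other on chromosome 8 and whose levels ran together over the 6 libraries. They are also shown for the 2 genes, of the 7 with a window, that had the most antioxidant response cores. The Mt1 window lies at chr8:94178839-94179138 and the Mt2 window at chr8:94172368-94172667, both on the plus strand. Capitals mark TGCNCNC, where N is any base, on either strand. This is a looser form of the metal response core TGCRCNC, where R is A or G.
Mt1 promoter: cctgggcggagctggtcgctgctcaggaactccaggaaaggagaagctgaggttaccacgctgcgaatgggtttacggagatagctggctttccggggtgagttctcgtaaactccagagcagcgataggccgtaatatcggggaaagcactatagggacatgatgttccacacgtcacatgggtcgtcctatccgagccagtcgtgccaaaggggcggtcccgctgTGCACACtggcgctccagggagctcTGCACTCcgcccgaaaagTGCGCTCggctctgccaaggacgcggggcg
Mt2 promoter: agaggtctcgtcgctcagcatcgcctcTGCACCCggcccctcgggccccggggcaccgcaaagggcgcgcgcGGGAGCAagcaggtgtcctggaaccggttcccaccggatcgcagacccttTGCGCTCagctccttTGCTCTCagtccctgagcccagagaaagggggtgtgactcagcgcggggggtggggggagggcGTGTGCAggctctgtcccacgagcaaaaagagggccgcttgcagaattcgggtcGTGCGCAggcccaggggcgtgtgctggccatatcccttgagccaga
The Mt1 window held 3 matches to the looser form and the Mt2 window 6. Of the Mt2 matches, TGCTCCC at -178 and TGCTCTC at -113 have T at the fourth base and so do not match TGCRCNC. Of all 32851 promoter windows of 300 bases, 51.0% held at least 1 match, 7.10% at least 3 and 0.225% at least 6. The Mt2 window also held 1 antioxidant response core, TGACTCAGC, whose first base lies at -79 from the RefSeq start site. The start of Mt2 in the annotation used for the counts, 94172664, lies at the end of this window, so Mt2 positions hold only for the RefSeq start.

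The Srxn1 window lies at chr2:152105274-152105573 on the plus strand and the Slc7a11 window at chr3:50443564-50443863 on the minus strand. Capitals mark the antioxidant response core TGANNNNGC on either strand.
Srxn1 promoter: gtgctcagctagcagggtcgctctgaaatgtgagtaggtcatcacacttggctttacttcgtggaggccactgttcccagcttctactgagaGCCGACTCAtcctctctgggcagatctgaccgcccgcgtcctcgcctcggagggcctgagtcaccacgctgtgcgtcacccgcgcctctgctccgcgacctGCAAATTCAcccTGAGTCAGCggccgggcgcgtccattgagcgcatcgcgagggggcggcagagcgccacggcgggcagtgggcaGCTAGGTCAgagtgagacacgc
Slc7a11 promoter: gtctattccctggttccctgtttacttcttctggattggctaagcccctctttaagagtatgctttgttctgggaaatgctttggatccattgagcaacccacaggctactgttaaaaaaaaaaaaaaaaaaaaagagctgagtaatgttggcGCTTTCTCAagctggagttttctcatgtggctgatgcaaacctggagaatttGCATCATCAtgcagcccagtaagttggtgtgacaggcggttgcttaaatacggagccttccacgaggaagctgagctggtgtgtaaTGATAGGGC
The Srxn1 window held 4 matches, one of them TGAGTCAGC at -45, and the Slc7a11 window 3. At least 1 match stood in 41.3% of all windows, at least 3 in 1.88% and at least 4 in 0.301%. The Gclm window held 1 match to the antioxidant core and the Nqo1 window 0, and of the 3 Txnrd1 windows 2 held 1 each. A match is a run of letters and not a measured binding site. Srxn1, with the most antioxidant cores of these windows, was among the genes with the smallest differences between genotypes. Hmox1, the gene called against the control, has no window here, and elements more than 250 bases before a start site were not searched. These matches therefore cannot show whether antioxidant elements go with the differences.

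**Figure D1:**
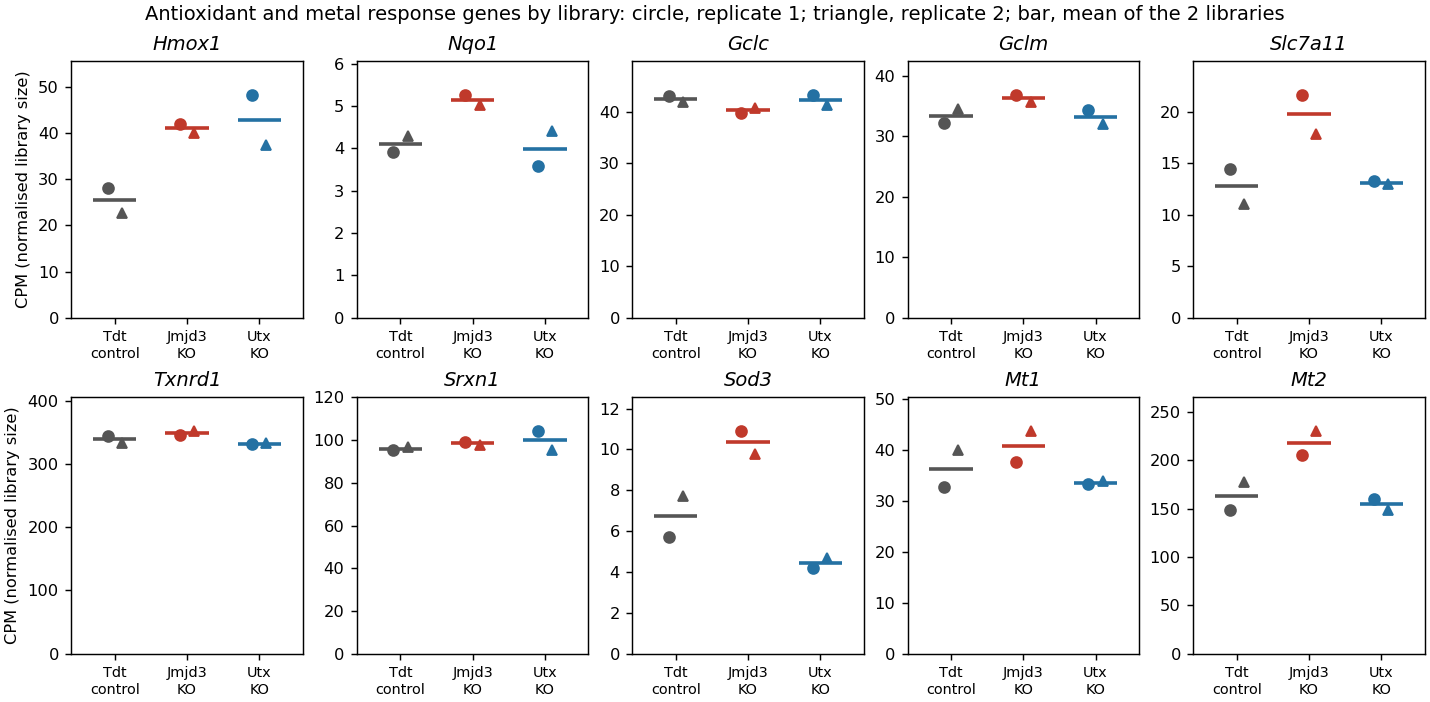
CPM (counts per gene scaled by the normalised size of each library) of the 10 genes in each of the 6 libraries. Each point is a library (circle, replicate 1, triangle, replicate 2), the bar in each group is the mean of its 2 libraries, and each panel has its own linear axis from 0. Hmox1 sits between 37.5 and 48.4 CPM in the 4 knockout libraries and at 22.8 and 28.2 in the controls, while Gclc, Txnrd1 and Srxn1 sit at nearly the same height in all groups.

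Levels between genes were compared as TPM, which corrects for transcript length. In the control libraries Mt2 was the most abundant of the 10, at 460 ± 76.8 TPM (SD, n = 2). Txnrd1 stood at 76.7 ± 0.229 and Mt1 at 75.0 ± 13.8, and these neighbours in the order did not differ beyond their spread. Srxn1 (25.1 ± 0.083), Gclm (22.8 ± 0.746), Hmox1 (11.4 ± 1.27) and Gclc (9.46 ± 0.023) followed. Slc7a11 (2.55 ± 0.689) and Nqo1 (1.87 ± 0.186) differed by less than the SD of Slc7a11, and Sod3 came last at 1.35 ± 0.337. Transcripts of the thioredoxin branch (Txnrd1, Srxn1) were thus more abundant in these cells than those of Nqo1, a textbook NRF2 target.

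The targeted genes were lower in the libraries labelled as knockouts. Kdm6b was at 29.9 and 22.7 CPM in the controls and at 15.9 and 16.5 with Jmjd3 deleted, and Kdm6a at 32.8 and 34.0 in the controls and 7.68 and 7.38 with Utx deleted. With Utx deleted Kdm6b was at 22.97 and 22.2 CPM, near the lower control. All 10 satellite cell markers, Pax7, Myf5 and Myod1 among them, were above 1 CPM in every library. The libraries held 53750675 to 77675388 estimated reads, and the 10 listed genes had from 192 (Nqo1) to 26155 (Txnrd1) reads per library. Differences are log2 fold changes ± SE from a fit of edgeR over all 6 libraries, and a gene was called where its p, adjusted by Benjamini and Hochberg's method across the 17084 genes of the fit, was under 0.05. All 10 genes passed its filter on low counts. By this fit Kdm6b was 1.62-fold lower in Jmjd3 KO than in the controls, and Kdm6a 4.44-fold lower in Utx KO. Kdm6b was not called in Jmjd3 KO against Utx KO (edgeR adjusted p = 0.0501).

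Hmox1 was higher in both knockouts than in the controls, and no other gene of the list was called against the control. Against Tdt control, 1 of the 10 genes was called in Jmjd3 KO, where 3% of all genes were called, and 1 of 10 in Utx KO, where 1.72% were. The list's median log2 fold change was 0.25 in Jmjd3 KO and -0.02 in Utx KO, and the median over all genes tested was -0.00475 and -0.00221. In Jmjd3 KO both libraries lay above both controls for 8 of the 10 genes and below them for 1, in Utx KO above for 1 and below for 2. Among all genes, 51.8% had libraries that did not overlap, in either direction, in the first comparison and 45.6% in the second. These 2 comparisons share their control libraries.

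Hmox1 (ENSMUSG00000005413.8, chromosome 8, 75093621 to 75100589, plus strand, GRCm38) encodes haem oxygenase 1, which opens haem into biliverdin, carbon monoxide and iron. It stood at 28.2 and 22.8 CPM in the controls, 42.1 and 39.97 with Jmjd3 deleted, and 48.4 and 37.5 with Utx deleted. All 4 knockout libraries were above both controls, and the 2 Utx KO libraries differed more from each other than the 2 Jmjd3 KO libraries. The log2 fold change was 0.69 ± 0.13 in Jmjd3 KO, a 1.61-fold higher level, and 0.75 ± 0.13 in Utx KO, 1.68-fold higher. Between the knockouts it was -0.06 ± 0.13, Jmjd3 KO minus Utx KO, and their libraries overlapped. The call in Jmjd3 KO was lost with transcript length offsets (log2 fold change 0.69) and without any one of the 4 libraries compared (0.55 to 0.85). The call in Utx KO was lost with those offsets, with the 4 libraries fitted alone, and when any library other than Utx KO replicate 2 was left out (0.56 to 0.93).

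Nearly all of the Hmox1 signal came from its coding transcript, Hmox1-201, which carried 97.7% to 99.6% of the gene's TPM over the 6 libraries. The coding transcript alone stood at 12.2 and 10.5 TPM in the controls, 19.9 and 19.2 with Jmjd3 deleted, and 21.9 and 16.6 with Utx deleted. The second transcript, a retained intron form, never passed 2.27% of the gene's TPM.

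Nqo1 (ENSMUSG00000003849.8, chromosome 8, 107388225 to 107403206, minus strand) encodes a reductase that turns quinones into hydroquinones by transfer of a pair of electrons. It stood at 3.92 and 4.28 CPM in the controls, 5.27 and 5.02 with Jmjd3 deleted, and 3.57 and 4.40 with Utx deleted. The Jmjd3 KO libraries were the highest of the 6, and the Utx KO libraries enclosed the controls. Its log2 fold change was 0.33 ± 0.13 in Jmjd3 KO and -0.04 ± 0.13 in Utx KO, and it was called in neither.

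Glutathione supply begins with cystine uptake. Slc7a11 (ENSMUSG00000027737.10, chromosome 3, 49892526 to 50443614, minus strand) encodes the light chain of the cystine-glutamate exchanger. It stood at 14.4 and 11.1 CPM in the controls, 21.7 and 17.9 with Jmjd3 deleted, and 13.2 and 12.95 with Utx deleted. Both Jmjd3 KO libraries lay above the other 4, and the Utx KO libraries lay between the 2 controls. The log2 fold change in Jmjd3 KO was 0.63 ± 0.13, not called in the fit over all 6 libraries, and 0.04 ± 0.14 in Utx KO. It was called in Jmjd3 KO with no low-count filter, with a filter of 5 CPM in 2 libraries, with a replicate block, with DESeq2 and without Tdt control replicate 1 (0.46 to 0.83 over the libraries left out).

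The transcripts of Slc7a11 did not behave alike. Its full-length coding transcript, Slc7a11-201, stood at 1.11 and 0.979 TPM in the controls, 2.11 and 1.80 with Jmjd3 deleted, and 1.00 and 1.06 with Utx deleted. Both Jmjd3 KO libraries were above the other 4, which lay close together. The retained intron transcript Slc7a11-204 stood at 1.41 and 0.852 TPM in the controls, 1.63 and 1.32 with Jmjd3 deleted, and 1.37 and 1.097 with Utx deleted, so that the groups overlapped. The coding transcript carried 36.5% to 50.9% of the gene's TPM. These shares rest on Salmon's split of reads among overlapping transcripts and were not tested.

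The enzyme that joins cysteine to glutamate, the first and limiting step of glutathione synthesis, showed little difference. Its catalytic subunit Gclc (ENSMUSG00000032350.9, chromosome 9, 77754535 to 77794485, plus strand) stood at 43.2 and 42.1 CPM in the controls, 39.8 and 40.9 with Jmjd3 deleted, and 43.4 and 41.5 with Utx deleted. It was the one gene of the list with both Jmjd3 KO libraries below both controls, by a log2 fold change of -0.08 ± 0.05. Its modifier subunit Gclm (ENSMUSG00000028124.15, chromosome 3, 122245557 to 122270732, plus strand) stood at 32.3 and 34.5 CPM in the controls, 36.9 and 35.7 with Jmjd3 deleted, and 34.4 and 32.1 with Utx deleted. The log2 fold change of Gclm was 0.12 ± 0.06 in Jmjd3 KO and -0.01 ± 0.06 in Utx KO, and that of Gclc in Utx KO was -0.01 ± 0.05. An exon of Gm17494, at 16.1 to 19.3 CPM, overlaps Gclm on the opposite strand, and whether the libraries keep strand was not given in the sources used here, so the reads of the pair may not be fully separable.

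The thioredoxin branch was the flattest part of the list. Txnrd1 (ENSMUSG00000020250.10, chromosome 10, 82833951 to 82897712, plus strand), the cytosolic thioredoxin reductase, stood at 344 and 333 CPM in the controls, 345 and 353 with Jmjd3 deleted, and 331 and 333 with Utx deleted. Srxn1 (ENSMUSG00000032802.8, chromosome 2, 152105516 to 152111376, plus strand), which repairs overoxidised peroxiredoxins, stood at 95.2 and 96.8 CPM in the controls, 99.3 and 97.5 with Jmjd3 deleted, and 104 and 95.3 with Utx deleted. For Txnrd1 the log2 fold change was 0.04 ± 0.04 in Jmjd3 KO and -0.03 ± 0.04 in Utx KO, and for Srxn1 it was 0.04 ± 0.06 and 0.06 ± 0.06. With SE this small, differences of the size seen in Hmox1 would stand far outside the error of either gene. Txnrd1 reads were spread over 3 main coding transcripts, Txnrd1-201 with 36.6% to 42.6% of the gene's TPM, Txnrd1-206 with 26.0% to 31.7% and Txnrd1-208 with 22.8% to 27.3%.

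Sod3 (ENSMUSG00000072941.5, chromosome 5, 52363791 to 52371418, plus strand) encodes the secreted superoxide dismutase, which clears superoxide outside the cell. It stood at 5.70 and 7.74 CPM in the controls, 10.9 and 9.80 with Jmjd3 deleted, and 4.20 and 4.71 with Utx deleted. The 3 groups did not overlap, with Jmjd3 KO highest, the controls between and Utx KO lowest. The log2 fold change was 0.63 ± 0.15 in Jmjd3 KO and -0.59 ± 0.16 in Utx KO, 1.55-fold higher and 1.503-fold lower, and neither was called in the fit over all 6 libraries. Both were called with no low-count filter and with DESeq2, and the first also without Tdt control replicate 2 (0.87). Both values rested on which control library was kept, with 0.42 in Jmjd3 KO without Tdt control replicate 1, and in Utx KO -0.80 without replicate 1 and -0.34 without replicate 2 of the control.

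The metallothionein pair differed in Jmjd3 KO only modestly. Mt2 (ENSMUSG00000031762.7, chromosome 8, 94172664 to 94173568, plus strand) stood at 148 and 177 CPM in the controls, 205 and 231 with Jmjd3 deleted, and 160 and 149 with Utx deleted. Mt1 (ENSMUSG00000031765.8, chromosome 8, 94179082 to 94180327, plus strand) stood at 32.8 and 39.9 CPM in the controls, 37.6 and 43.8 with Jmjd3 deleted, and 33.2 and 33.9 with Utx deleted. For Mt2 both Jmjd3 KO libraries were above the other 4, while for Mt1 a control library lay between them. The log2 fold change of Mt2 was 0.42 ± 0.10 in Jmjd3 KO and -0.08 ± 0.10 in Utx KO, and that of Mt1 was 0.16 ± 0.10 and -0.11 ± 0.10. None of these 4 was called. Mt2 in Jmjd3 KO was called with no low-count filter, with DESeq2 and without Tdt control replicate 2 (0.56), and its fold was 0.29 without Tdt control replicate 1. Those same omissions gave Mt1 0.32 and 0.028. Mt1 and Mt2 had a Pearson correlation of 0.90 over the 6 libraries, which share their genotypes and so are not independent points. An antisense transcript, Gm45774, overlaps an exon of Mt2 and stood at 1.46 to 3.08 CPM.

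A longer Mt1 transcript, Mt1-202, took a different share of the gene's TPM in each genotype. It carried 3.92% and 3.78% in the controls, 2.53% and 2.12% with Jmjd3 deleted, and 5.17% and 4.997% with Utx deleted. The groups did not overlap and ran in the opposite order to the gene's own mean level. This share was noticed in the data and was not tested.

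**Figure D2:**
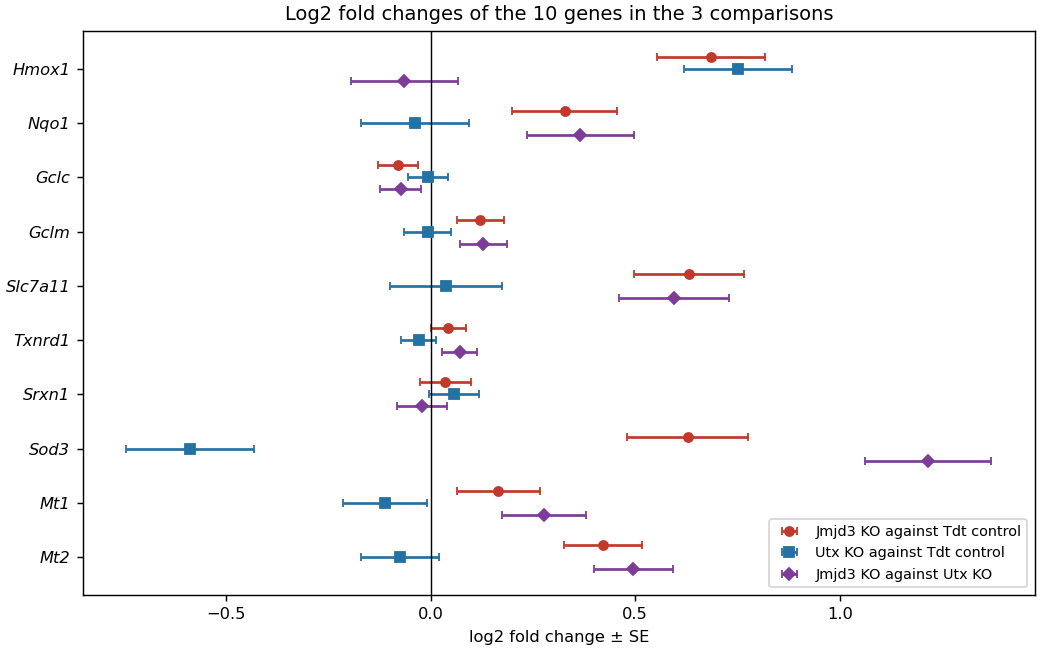
Log2 fold change of each of the 10 genes in the 3 comparisons, 1 colour and symbol each, with error bars of 1 SE and a line at 0. Hmox1 lies at 0.69 and 0.75 against the control and at -0.06 between the knockouts, where Sod3 lies farthest out at 1.22.

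The 2 knockouts were separated by other genes of the list than Hmox1. Sod3, Slc7a11 and Mt2 were called higher in Jmjd3 KO than in Utx KO, which is 3 of 10 in a comparison where 8.02% of all genes were called. The list's median log2 fold change was 0.20, against 0.00135 over all genes. In 7 of the 10 genes both Jmjd3 KO libraries lay above both Utx KO libraries and in 1 below, and 57.2% of all genes did not overlap in either direction. Sod3 had the largest of these differences at 1.22 ± 0.15, a 2.32-fold higher level in Jmjd3 KO. Slc7a11 followed at 0.59 ± 0.13 and Mt2 at 0.50 ± 0.10, 1.51-fold and 1.41-fold higher. Nqo1 (0.37 ± 0.13), Mt1 (0.28 ± 0.10) and Gclm (0.13 ± 0.06) were not called. Sod3 lost its call only without Utx KO replicate 1 (1.13 to 1.300 over the libraries left out). Slc7a11 and Mt2 lost theirs with transcript length offsets and without any one of the 4 libraries compared (0.45 to 0.73 and 0.41 to 0.58).

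The authors' deposited table gave Hmox1 a log2 fold change of 0.63 in Jmjd3 KO and 0.72 in Utx KO. In the authors' deposited table Sod3 had 0.50 in Jmjd3 KO and -0.39 in Utx KO, Mt2 0.34 and -0.02, and Slc7a11 0.31 and 0.00471. Those values lie nearer 0 than the ones above, most of all for Slc7a11 in Jmjd3 KO.

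Markers of other cell types moved with some of these genes, and their part in the results was not tested. In bulk RNA, more cells of a type and more RNA per cell cannot be told apart. Summed over 15 macrophage and monocyte markers, which include Adgre1, Cd68 and Csf1r, the level was 246 and 294 CPM in the controls, 364 and 333 with Jmjd3 deleted, and 220 and 258 with Utx deleted. Cd14, the largest part, stood at 68.9 and 74.9, 132 and 106, and 78.2 and 90.6 CPM in the same order. Against the control, Cd14 and Tyrobp were called higher in Jmjd3 KO, and Fcgr1 lower in Utx KO. The share of all genes called was 3% and 1.72%. Fcgr1 was below both controls (3.67 and 4.07 CPM) in Jmjd3 KO too, at 3.20 and 3.50 CPM, and was not called there. The list's median log2 fold change was 0.16 in Jmjd3 KO and -0.37 in Utx KO. Both Jmjd3 KO libraries lay above both controls for 6 of the 15 markers and below for 1, where 51.8% of all genes did not overlap, in either direction. Both Utx KO libraries lay below both controls for 10 of the 15 markers and above for 1. Of all genes, 45.6% did not overlap there, in either direction. Over 12 neutrophil markers the sum was 106 and 116 CPM in the controls, 215 and 165 with Jmjd3 deleted, and 145 and 173 with Utx deleted, higher in all 4 knockout libraries as Hmox1 was. Of 10 neutrophil markers tested, Hdc, Csf3r and S100a9 were called higher in Jmjd3 KO and Hdc in Utx KO, against the control. The share of all genes called was again 3% and 1.72%. Hdc, which makes histamine, was at 14.95 and 12.8 CPM in the controls, 32.9 and 27.5 with Jmjd3 deleted, and 22.6 and 25.4 with Utx deleted. Ngp, a granule gene, went the other way, at 0.290 and 0.531 CPM in the controls and 0.091 and 0.062 with Jmjd3 deleted. With Utx deleted Ngp was at 0.056 and 0.051. Ltf was lower in Utx KO (0.205 and 0.153) than in the controls (0.303 and 0.471). The granule gene Camp was at 0 to 0.039 CPM and Ly6g at 0 to 0.093. Camp and Ly6g were at 0 in some libraries and in no list was a marker at 0 in all 6.

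Sod3, Mt2 and Slc7a11, which were higher in Jmjd3 KO than in Utx KO, moved in the same direction as 8 of the 15 macrophage and monocyte markers called in that comparison, Itgam, Cd68, Tyrobp, Csf1r, Lyz2, Cd14, Ptprc and Fcgr1. Of 12 fibro-adipogenic markers, Lum, Dcn and Col1a1 were called higher there too. So were Eng of 12 endothelial markers, and Des and Mcam of 10 mural markers. The share of all genes called in that comparison was 8.02%. Dcn stood at 38.1 and 49.1 CPM in the controls, 58.3 and 55.7 with Jmjd3 deleted, and 29.3 and 37.2 with Utx deleted, the same order of groups as Sod3. Dpt, of the same list, was at 22.98 and 28.4 CPM in the controls, 28.5 and 27.0 with Jmjd3 deleted, and 32.4 and 35.5 with Utx deleted, highest in Utx KO. The fibro-adipogenic sum ran from 1192 to 1222 CPM in Jmjd3 KO, 1015 to 1034 in Tdt control and 1028 to 1211 in Utx KO. The mural sum ran from 1788 to 1858, 1504 to 1514 and 1441 to 1481 CPM, most of it from Des, which is also a satellite cell marker here. Endothelial (66.2 to 96.0 CPM) and erythroid (28.5 to 43.5 CPM) sums were low throughout, and the erythroid genes Klf1 and Slc4a1 were at 0 in some libraries. In Utx KO against the control the median log2 fold change was -0.33 over 12 endothelial and -0.40 over 10 mural markers. Both Utx KO libraries lay below both controls for 9 endothelial markers and above for 1, and for 7 and 0 mural markers. There 45.6% of all genes did not overlap, in either direction. In Jmjd3 KO these medians were -0.08 and -0.02. The satellite cell sum was 3903 and 3935 CPM in the controls, 4159 and 4233 with Jmjd3 deleted, and 3964 and 4014 with Utx deleted. Of its 10 markers, Des and Fgfr4 were called higher and Myod1 lower in Jmjd3 KO against the control. In Utx KO Myf5 and Fgfr4 were called higher and Myod1 lower. Of all genes 3% and 1.72% were called in these comparisons. Des stood at 1091 and 1112 CPM in the controls, 1377 and 1425 with Jmjd3 deleted, and 1062 and 1096 with Utx deleted.

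**Figure D3:**
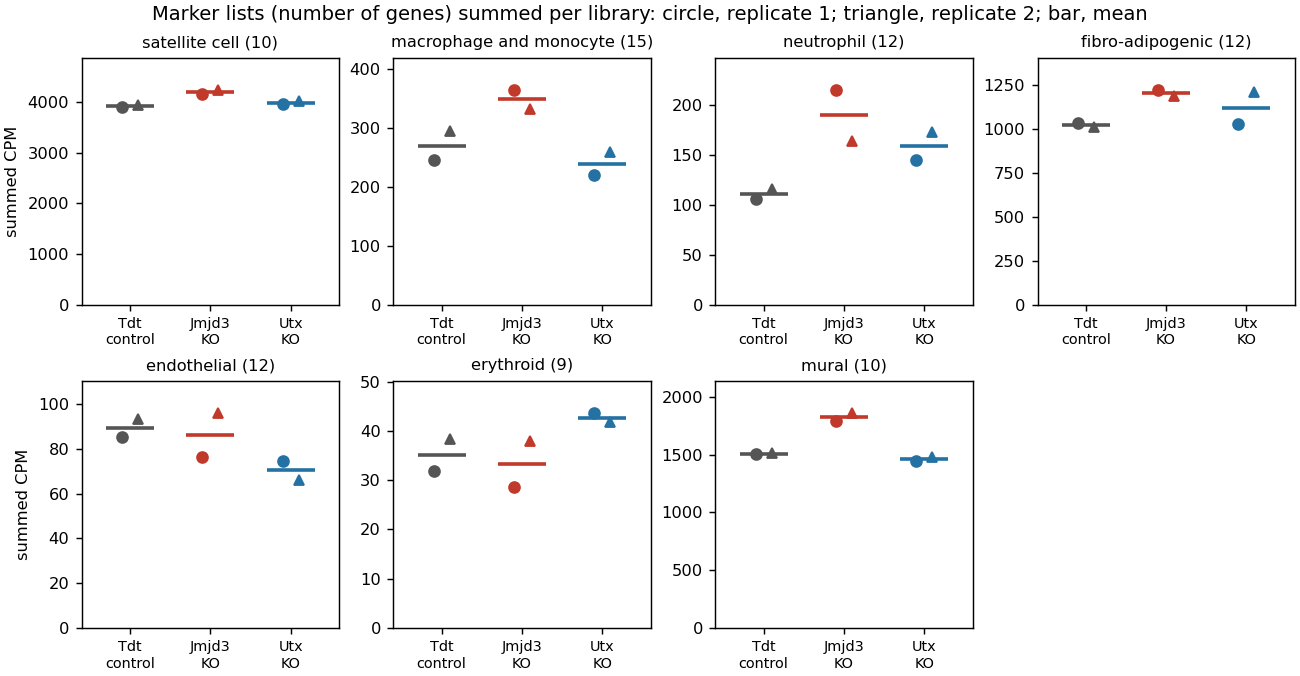
Summed CPM of each marker list in the 6 libraries, 1 panel per list with its own linear axis from 0, 1 point per library and a bar at the mean of each group. The neutrophil sum is higher in the 4 knockout libraries (145 to 215) than in the controls (106 and 116), and the macrophage and monocyte sum is highest in Jmjd3 KO (333 and 364).

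The wider pathways moved little. Beside the 10 genes, 178 genes in 6 lists (NRF2 regulators, other NRF2 targets, glutathione, thioredoxin and peroxiredoxin, haem and iron, zinc and copper) gave 167 tested genes. In Jmjd3 KO against the control 5 were called higher and 1 lower, 3.59% of those tested. In Utx KO 3 were called higher and 0 lower, 1.80%. Both shares lie near the share of all genes called. At an unadjusted p under 0.05, the background for the counts given with each list, stood 19.96% of all genes in Jmjd3 KO and 16.2% in Utx KO. The median log2 fold change of the 167 genes was 0.05 in Jmjd3 KO and 0.02 in Utx KO.

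Among 19 tested regulators and partners of NRF2, 1 was called higher in Jmjd3 KO and 0 in Utx KO by edgeR, where 5 and 1 had an unadjusted p under 0.05. Nfe2l2 itself stood at 102 and 105 CPM in the controls, 113 and 109 with Jmjd3 deleted, and 113 and 106 with Utx deleted. Its log2 fold change was 0.10 ± 0.06 in Jmjd3 KO (edgeR adjusted p = 0.386) and 0.08 ± 0.06 in Utx KO (edgeR adjusted p = 0.548). Keap1, its inhibitor, had 0.07 ± 0.06 (edgeR adjusted p = 0.518) and 0.03 ± 0.06 (edgeR adjusted p = 0.829). Bach1, the haem-sensing repressor of Hmox1, had 0.10 ± 0.05 (edgeR adjusted p = 0.352) and 0.08 ± 0.05 (edgeR adjusted p = 0.523). Neither activator nor repressor thus changed past the threshold at the level of RNA, and none of these values measures protein or its place in the cell. Sqstm1, the autophagy receptor p62 that binds KEAP1 and is itself an NRF2 target, stood at 268 and 265 CPM in the controls, 323 and 311 with Jmjd3 deleted, and 313 and 300 with Utx deleted. It rose in Jmjd3 KO by 0.25 ± 0.05 (edgeR adjusted p = 0.0363), and in Utx KO its 0.20 ± 0.05 was not called (edgeR adjusted p = 0.0925). The Jmjd3 KO call was lost in 9 of 14 alternatives, each of the 6 libraries left out among them (log2 fold change 0.22 to 0.28, highest edgeR adjusted p = 0.221).

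Of 38 other NRF2 target genes tested, 3 were called higher in Jmjd3 KO and 2 in Utx KO, and none lower. In each knockout 13 had an unadjusted p under 0.05, against 19.96% of all genes in Jmjd3 KO and 16.2% in Utx KO. Both Jmjd3 KO libraries lay above both controls for 21 of the 38 and below for 2. In Utx KO these counts were 14 and 8. Of all genes 51.8% and 45.6% did not overlap, in either direction. The list's median log2 fold change was 0.10 in Jmjd3 KO and 0.02 in Utx KO. Ptgr1, a reductase of leukotrienes, prostaglandins and reactive aldehydes, shared the pattern of Hmox1. It stood at 9.55 and 8.44 CPM in the controls, 12.9 and 12.98 with Jmjd3 deleted, and 13.1 and 13.7 with Utx deleted, so that all 4 knockout libraries were above both controls. It rose by 0.52 ± 0.08 in Jmjd3 KO (edgeR adjusted p = 0.0203) and by 0.57 ± 0.08 in Utx KO (edgeR adjusted p = 0.0249). The first call was lost without either Jmjd3 KO library and without Tdt control replicate 2 (log2 fold change 0.45 to 0.62, highest edgeR adjusted p = 0.136). The second was lost in 8 of 14 alternatives, each of the 6 libraries left out among them (0.49 to 0.66, highest edgeR adjusted p = 0.131).

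Gsta1, a glutathione transferase and 1 of the genes counted as called in each knockout, had 0 and 0 reads in the controls, 32 and 13 with Jmjd3 deleted, and 21 and 24 with Utx deleted. Against a floor of 3 counts per control library its level was at least 8.10-fold higher in Jmjd3 KO and at least 9.39-fold higher in Utx KO. It passed the filter on low counts only through the knockout libraries, so its calls are not used as a test. Its near-identical neighbour Gsta2 stood at 0 to 0.0790 CPM, and reads of the 2 copies may have been split between them, so the value is uncertain. DESeq2 gave it no adjusted p, and both calls were lost when any library other than Jmjd3 KO replicate 2 was left out. The Utx KO call was also lost with transcript length offsets. Abcc3, an exporter of glucuronide and other conjugates, stood at 0.908 and 1.25 CPM in the controls, 2.33 and 2.80 with Jmjd3 deleted, and 0.930 and 1.31 with Utx deleted. It rose in Jmjd3 KO by 1.26 ± 0.24 (edgeR adjusted p = 0.0392) and had 0.07 ± 0.26 in Utx KO (edgeR adjusted p = 0.934). The Jmjd3 KO call was lost with transcript length offsets and without any one of the 4 libraries compared (1.04 to 1.504, highest edgeR adjusted p = 0.202).

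Of 29 glutathione genes tested, 1 was called lower in Jmjd3 KO and 0 in Utx KO, with 7 and 2 at an unadjusted p under 0.05. Gpx3, the secreted glutathione peroxidase, stood at 310 and 411 CPM in the controls, 184 and 168 with Jmjd3 deleted, and 443 and 393 with Utx deleted. Both Jmjd3 KO libraries were below the other 4, the opposite of Sod3, the other secreted enzyme. It fell by 1.04 ± 0.13 on the log2 scale in Jmjd3 KO (edgeR adjusted p = 0.00824), a 2.05-fold lower level. Against Utx KO the log2 difference was -1.25 ± 0.13 (edgeR adjusted p = 0.00271). The call against the control was lost without either Jmjd3 KO library (log2 fold change -1.23 to -0.81 over the libraries left out, highest edgeR adjusted p = 0.0625).

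Of 22 thioredoxin, peroxiredoxin and superoxide dismutase genes and of 34 haem and iron genes tested, edgeR called 0 against the control in either knockout. In the first list 1 gene had an unadjusted p under 0.05 in each knockout, in the second 10 in Jmjd3 KO and 6 in Utx KO. Of 30 zinc and copper genes 1 was called higher in each knockout. Atox1, the chaperone that hands copper to the export pumps, stood at 16.8 and 16.4 CPM in the controls, 27.6 and 24.8 with Jmjd3 deleted, and 16.7 and 16.8 with Utx deleted. It rose in Jmjd3 KO by 0.66 ± 0.07 (edgeR adjusted p = 0.00374), and also against Utx KO by 0.64 ± 0.07 (edgeR adjusted p = 0.00292). Both calls were kept in all 14 alternatives. Slc39a10, a zinc importer of the plasma membrane, stood at 60.1 and 63.4 CPM in the controls, 62.96 and 62.1 with Jmjd3 deleted, and 78.6 and 79.0 with Utx deleted. It rose in Utx KO by 0.35 ± 0.05 (edgeR adjusted p = 0.0283), a call lost in 8 of 14 alternatives, each of the 6 libraries left out among them (0.31 to 0.40, highest edgeR adjusted p = 0.156). Mtf1, the zinc-sensing activator of the metallothioneins, had -0.07 ± 0.05 in Jmjd3 KO (edgeR adjusted p = 0.430) and -0.08 ± 0.05 in Utx KO (edgeR adjusted p = 0.447).

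**Figure D4:**
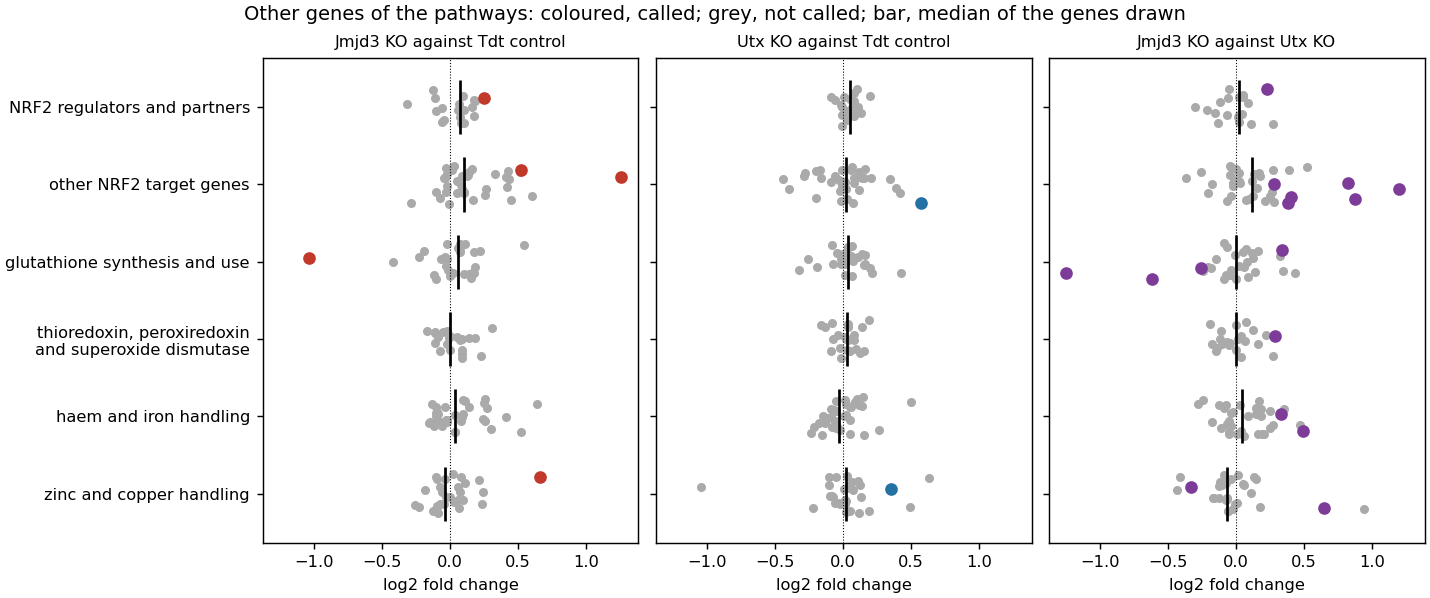
Log2 fold change of each tested gene of the 6 pathway lists in the 3 comparisons, 1 point per gene, coloured where called and grey where not, with a bar at each list's median over the genes drawn and vertical scatter only to separate points. Gsta1, which has 0 reads in both controls and so no bounded fold change, is left out. Most points lie near 0, with Gpx3 low (-1.04) and Abcc3 (1.26) and Atox1 (0.66) high in Jmjd3 KO.

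The genes whose level over the 6 libraries was most like that of Hmox1, Mt2 and Nqo1 were picked by Pearson correlation of log2 CPM among 9805 genes with a mean of at least 5 CPM. The libraries share genotype and depth, so these correlations describe 6 points and carry no test. For Hmox1 they were Epg5 (0.993), Ezh1 (0.991), Msl1 (0.984), Dennd4a (0.984) and Ndrg1 (0.982). Ndrg1, a stress and hypoxia response gene, stood at 55.8 and 50.8 CPM in the controls, 74.0 and 78.6 with Jmjd3 deleted, and 85.7 and 73.7 with Utx deleted. For Mt2 they were Setd7 (0.998), Igdcc4 (0.991), Gps2 (0.990), Plekhm1 (0.988) and Crtap (0.987), and for Nqo1 they were Crat (0.996), Npepl1 (0.993), Coq9 (0.992), Egln2 (0.992) and Prkaa2 (0.991). Crat, the carnitine acetyltransferase of mitochondria, stood at 39.6 and 42.2 CPM in the controls, 54.4 and 51.2 with Jmjd3 deleted, and 35.4 and 45.4 with Utx deleted. No gene of the list of 10 was among the 5 most like Hmox1, Mt2 or Nqo1. Within the list, the correlations of Hmox1 ran from -0.21 with Gclc to 0.66 with Srxn1, with 0.10 for Nqo1, 0.22 for Mt2 and 0.53 for Slc7a11.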

How the data were processed

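Total RNA of 6 libraries was sequenced. Salmon 1.1.0, cutadapt 2.6, DESeq2 1.28.1 and the builds GRCm38 and mm10 are named, without order or role, in the submitters' processing notes. Per the file headers, each library's deposited quantification lists estimated counts and TPM for every transcript. The authors' deposited comparison tables give log2 fold changes against the control, made by steps not given in the sources used here.

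With GENCODE M21 (GRCm38) as the map from transcripts to genes, estimated counts were added up per gene and rounded. Of 140748 transcripts, 139448 matched by version, 416 by another version and 884 not at all (0.151% to 0.175% of reads). Which annotation release the files use was not given in the sources used here. Library totals ran from 53750675 to 77675388 estimated reads.

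edgeR 4.0.16 in R 4.3.3 was fitted once to all 6 libraries (TMM factors, filterByExpr, genotype term, quasi-likelihood test), with 3 residual degrees of freedom and a common biological coefficient of variation of 0.0844. Calls used a Benjamini-Hochberg adjusted p under 0.05 over 17084 genes. Fold changes are ± SE and levels ± SD. CPM are scaled by normalised library size. The fit was tested on simulated data.

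The 10 genes, the pathway and marker lists and the rules were chosen with earlier results of these data known. Named were the 10 genes, up to 3 called genes per pathway list, direction and knockout, Nfe2l2, Keap1, Bach1 and Mtf1, both targeted genes, and the 5 genes most correlated with Hmox1, Mt2 and Nqo1, without Gm, Rik and pseudogene symbols. Other genes were named after their values were seen. Wdr23 and Ahsp did not match the annotation. Promoters came from RefSeq (GRCm38.p6), and both strands were searched.

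Alternatives were RLE or upper-quartile factors, DESeq2 1.42.0, no low-count filter, 5 CPM in 2 libraries, transcript length offsets, the 4 libraries compared alone, a replicate block, and each library left out in turn.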

Additional observations from a re-analysis of the deposited data

How the results depend on the processing

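With 2 libraries per group and 3 residual degrees of freedom the number of libraries limits precision, and for genes with few reads, such as Gsta1 (0 to 32 reads per library), Abcc3 (50 to 181) and Nqo1 (192 to 346), counting error does too. The number of genes called in Jmjd3 KO against Tdt control was 513, and it was 1872 with no low-count filter, 1083 with DESeq2, 330 with transcript length offsets and 113 to 434 with 1 library left out. In Utx KO against Tdt control it was 293, and 1399 with no filter, 698 with DESeq2, 131 with length offsets, 119 with the 4 libraries alone and 16 to 96 with 1 library left out. Between the knockouts it was 1370, and 2856 with no filter, 790 with length offsets and 291 to 1387 with 1 library left out. With a replicate block the 3 counts were 322, 133 and 948. Over all genes, same-numbered libraries did not deviate together (correlations of -0.01, -0.01 and -0.05 between groups). That cannot show whether a shared batch acted on some genes, and the labels state no pairing. Hmox1 was higher in replicate 1 than in replicate 2 of each group. Its SE in Jmjd3 KO against the control was 0.13, and 0.08 with the block. Of the 30 fold changes of the 10 genes, 11 kept both call and sign in all 14 alternatives and 9 changed sign in some. Those that changed sign did so only with a library left out and lay near 0. In Utx KO against the control their ranges were -0.20 to 0.10 for Nqo1, -0.040 to 0.028 for Gclc, -0.059 to 0.050 for Gclm, -0.011 to 0.12 for Srxn1, -0.13 to 0.24 for Slc7a11, -0.25 to 0.043 for Mt1 and -0.20 to 0.070 for Mt2. Between the knockouts they were -0.24 to 0.13 for Hmox1 and -0.086 to 0.047 for Srxn1. Other genes that changed sign were Slc39a10 in Jmjd3 KO (-0.021 to 0.064), and Abcc3 (-0.20 to 0.31) and Keap1 (-0.025 to 0.088) in Utx KO. The cause was not tested.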

Other observations

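Between the 2 knockouts, 12 of the 167 tested pathway genes were called higher in Jmjd3 KO and 4 lower, 9.58% of them, close to the 8.02% of all genes. The genes named here beyond Atox1, Abcc3, Gpx3 and Slc39a10 were chosen after their values were seen. Ephx1, the microsomal epoxide hydrolase, stood at 16.3 and 17.7 CPM in the controls, 24.0 and 21.8 with Jmjd3 deleted, and 11.05 and 13.9 with Utx deleted, a log2 difference between the knockouts of 0.87 ± 0.11 (edgeR adjusted p = 0.00554). Fth1, the ferritin heavy chain that stores iron, stood at 560 and 571 CPM, 665 and 681, and 455 and 506 in the same order of groups, a difference of 0.49 ± 0.06 (edgeR adjusted p = 0.00372). For both genes the 3 groups did not overlap and the controls lay between the knockouts, as they did for Sod3, and both calls were kept in all 14 alternatives. Against the control neither was called in Jmjd3 KO (edgeR adjusted p = 0.0789 for Ephx1 and 0.0572 for Fth1) or in Utx KO (0.111 and 0.0929).

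Among conjugating and reducing enzymes, Ugt1a6a (0.82), Gstm1 (0.41), Akr1b8 (0.38) and Gstt1 (0.34) were higher in Jmjd3 KO than in Utx KO, with edgeR adjusted p from 0.0143 to 0.0444. Cth, which makes cysteine from cystathionine, was lower at -0.62 ± 0.14 (edgeR adjusted p = 0.0373), while the cystine importer Slc7a11 was higher in the same comparison. Gsto1 was lower at -0.26 ± 0.06 (edgeR adjusted p = 0.0499), a call kept in only 3 of 14 alternatives. The other 4 called higher were Slc25a28, a mitochondrial iron importer, at 0.33, Msrb1, a methionine sulfoxide reductase, at 0.29, Abcb6, a porphyrin transporter, at 0.28 and Sesn3, a stress-induced sestrin, at 0.23. Sesn3 had 0.42 with transcript length offsets (edgeR adjusted p = 0.237, range over alternatives 0.0213 to 0.241) and lost its call in 7 of 14 alternatives. All of the calls in this paragraph were lost without either Jmjd3 KO library and without Utx KO replicate 1. All but that of Ugt1a6a were also lost without Utx KO replicate 2, and all but that of Akr1b8 with transcript length offsets.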
